A study of Mus musculus with 12 samples.

Results

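The cornified envelope genes encode the proteins, and the enzymes that join them, of the cross-linked shell that replaces the membrane of dying surface keratinocytes in stratified epithelium. They were followed in RNA sequencing of anterior hard palates dissected from mouse embryos. The rule took every gene whose symbol starts with Sprr or Lce, together with Lor, Flg2, Hrnr, Rptn, Tchh, Tchhl1, Ivl, Krtdap, Sbsn, Dmkn, Cnfn, Tgm1, Tgm3, Tgm5, Tgm7, Casp14 and Endou. It found 54 of the 24391 genes counted, namely 16 Sprr genes, 21 Lce genes and 17 others. The rule used no measured value, but the members were chosen with earlier results of these data known. Sprr2g and Sprr2j-ps are annotated as transcribed pseudogenes. Flg, the filaggrin gene, was not analysed here. In the RefSeq annotation 44 of the 54 lie on chromosome 3, where most of them form the epidermal differentiation complex, 4 (Krtdap, Sbsn, Dmkn and Cnfn) on chromosome 7 and 6 elsewhere.

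The 12 libraries formed 4 groups of 3: Shox2Cre; R26RFgf8 mutants and wild type controls at embryonic day 16.5 (E16.5), and the same genotypes at embryonic day 14.5 (E14.5), all labelled C57BL/6. In the mutants, Cre recombinase made from the Shox2 gene switches on an Fgf8 transgene at the Rosa26 locus; Shox2 is known from the mesenchyme of the anterior palate, whereas the envelope genes are known from its epithelium. The labels do not say whether a library is 1 embryo or a pool, nor whether the libraries of a group came from separate litters, so the p-values measure the spread between these libraries, which may be technical. Libraries held 76417891 to 125996587 counts.

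Fgf8 averaged 16.1 ± 1.93 CPM (CPM are counts scaled to a fixed library total after TMM normalisation; SD, n = 3) in E16.5 mutants and 0.383 ± 0.11 CPM in E16.5 controls, and 10.8 ± 0.275 CPM in E14.5 mutants and 0.316 ± 0.0938 CPM in E14.5 controls. Shox2 averaged 140 ± 22.9 CPM in E16.5 mutants and 90.6 ± 5.93 CPM in E16.5 controls, and 213 ± 16.8 CPM in E14.5 mutants and 179 ± 17.3 CPM in E14.5 controls, so this marker of anterior palate mesenchyme was present in each group. Of the 9 genes of a palate mesenchyme list, 4 were higher at E16.5 in mutants (Prrx1, Pax9, Shox2 and Msx1) and 2 lower, the collagen genes Col1a1 and Col1a2, with log2 fold changes of -1.76 and -2.79 (adjusted p = 4.75e-05 and 0.000127, edgeR). The list summed to 2665 to 4117 CPM in E16.5 mutants and 5728 to 6895 CPM in E16.5 controls; its part in the results was not tested. Mutant libraries 1 and 3 at E16.5 stood apart. Summed over 6 genes of retina and neuron (Fgf15, Tubb3, Stmn2, Elavl3, Elavl4 and Prph), a list put together because these libraries were known to hold them, the E16.5 mutants had 218, 30.1 and 121 CPM in libraries 1, 2 and 3, against 22.7, 19.5 and 18.5 CPM in the E16.5 controls. The E16.5 counts of called genes, and the members that lost their call, are therefore also given without mutant libraries 1 and 3. Xist, the RNA of the inactive X chromosome of females, named here after its values were seen, averaged 899 ± 13.4 CPM in E16.5 mutants and 404 ± 71.4 CPM in E16.5 controls, and 486 ± 41.0 CPM in E14.5 mutants and 780 ± 76.9 CPM in E14.5 controls, and embryo sex is not in the labels; its part in the results was not tested.

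In a cornifying cell, involucrin and the plakins are laid down first under the membrane, loricrin, the small proline-rich (Sprr) and the late cornified envelope (Lce) proteins are added to them, and transglutaminases fix the whole by bonds between glutamine and lysine. The S100-fused proteins (Hrnr, Rptn, Tchh, Flg2) are relatives of filaggrin, which binds keratin filaments, and join the envelope or the keratin network. The mouse hard palate is lined on its oral side by an epithelium that keratinises late in gestation.

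Promoters of 6 members from 4 of these roles are shown here because these genes carry much of the account below; the counts hold no measure of promoter activity, and no link between these sequences and the levels was tested. All are the 160 bases before the transcription start, on the gene's own strand, from RefSeq on GRCm38.p6; capitals mark the motifs TATAAA, the TATA box, and TGANTCA, which dimers of Fos and Jun proteins are known to bind. The S100-fused genes Hrnr (chr3:93319589-93319748, plus strand) and Rptn (chr3:93393539-93393698, plus strand) come first, then Lor (chr3:92083143-92083302, minus strand), Krtdap (chr7:30787745-30787904, plus strand), Sprr1a (chr3:92485882-92486041, minus strand) and Sprr3 (chr3:92458721-92458880, minus strand).
Hrnr: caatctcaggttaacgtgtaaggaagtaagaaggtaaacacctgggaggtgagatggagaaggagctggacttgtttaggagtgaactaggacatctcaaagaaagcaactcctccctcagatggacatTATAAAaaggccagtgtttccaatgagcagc
Rptn: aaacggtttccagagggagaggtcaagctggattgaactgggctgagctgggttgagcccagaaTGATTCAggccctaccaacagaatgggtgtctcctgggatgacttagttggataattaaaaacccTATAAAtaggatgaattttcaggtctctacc
Lor: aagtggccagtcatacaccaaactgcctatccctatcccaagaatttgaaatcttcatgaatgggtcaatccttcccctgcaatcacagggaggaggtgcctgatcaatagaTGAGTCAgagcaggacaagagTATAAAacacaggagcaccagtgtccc
Krtdap: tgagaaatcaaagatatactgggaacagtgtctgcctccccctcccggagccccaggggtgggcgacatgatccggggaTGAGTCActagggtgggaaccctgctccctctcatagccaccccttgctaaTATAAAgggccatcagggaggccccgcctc
Sprr1a: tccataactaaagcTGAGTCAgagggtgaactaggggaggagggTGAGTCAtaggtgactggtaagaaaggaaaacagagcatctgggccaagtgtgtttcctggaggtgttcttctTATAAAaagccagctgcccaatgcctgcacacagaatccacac
Sprr3: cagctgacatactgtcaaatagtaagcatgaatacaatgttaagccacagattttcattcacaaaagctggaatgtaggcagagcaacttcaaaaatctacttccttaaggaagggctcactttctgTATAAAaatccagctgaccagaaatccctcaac

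All 6 hold TATAAA, which starts 31 bases before the transcription start in Hrnr and Rptn, 27 in Lor, 30 in Krtdap, 43 in Sprr1a and 33 in Sprr3. TGANTCA occurs once in Rptn, Lor and Krtdap, at 2 places in Sprr1a, and not in these windows of Hrnr and Sprr3. A member was counted if any of its RefSeq promoters held the motif, whereas the share of all is over single promoters, so the 2 measures differ. Over the 250 bases before the start, searched on both strands, TATAAA was in 40% of the 50 members with a RefSeq promoter (20 genes), against 12.4% of all 32851 RefSeq mouse promoters. TATAAA beginning 40 to 20 bases before the start on the gene's strand was in 34% of the members (17 genes), against 1.99% of all promoters. TGANTCA was in 34% of the members (17 genes), against 6.75% of all promoters. The motifs GGGCGG and CCAAT were in 6% and 24% of the members, against 32.7% and 33.8% of all promoters, and AACCGG, bound by Grhl proteins, was in none of the members' windows and in 5.62% of all. These are matches of letters only, and neighbouring members of a family share sequence, so the 50 members are not independent.

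The envelope genes were abundant at E16.5 and present in traces at E14.5. Summed over the 54 members, E16.5 mutant libraries 1, 2 and 3 held 3149, 3529 and 3220 CPM and E16.5 controls 5289, 5487 and 5205 CPM, whereas E14.5 mutants held 24.4, 24.8 and 26.6 CPM and E14.5 controls 17.9, 24.7 and 24.3 CPM. The sum at E16.5 was 131-fold that at E14.5 in mutants and 239-fold in controls. In bulk tissue, fewer keratinocytes and less RNA in each of them cannot be told apart. Of the 54 members, 48 had a count in at least 1 E16.5 mutant library and 49 in an E16.5 control library, against 25 in E14.5 mutants and 27 in E14.5 controls. Sprr2a1, Sprr2a2, Sprr2e and Lce6a had 0 counts in all 12 libraries; for Sprr2a1 and Sprr2a2 96.3% and 96.5% of the 50-base windows of the transcript also occur in another gene, so the counting could have dropped their reads.

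**Figure D1:**
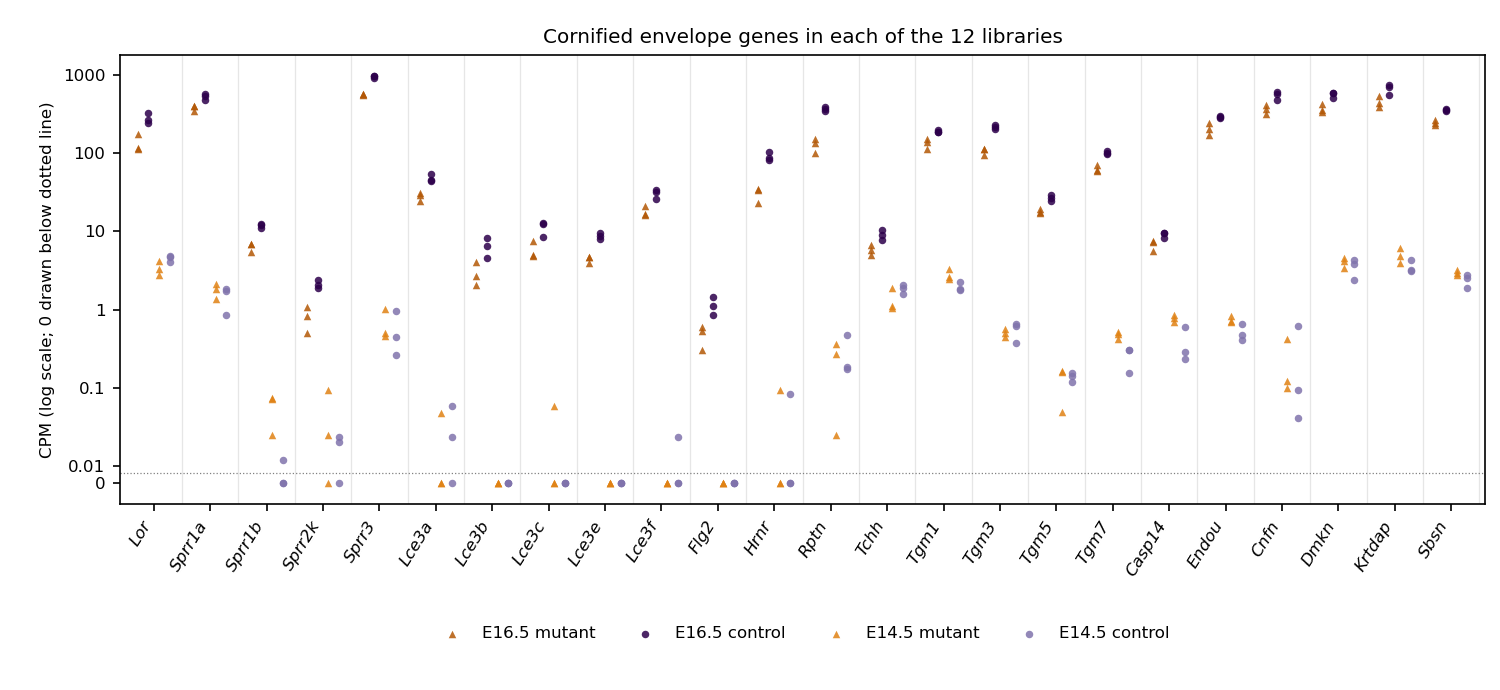
CPM on a log axis of the 24 members that reached a mean of 1 CPM in a group, with 1 point per library (triangles mutants, circles controls; darker colours E16.5, lighter E14.5). The E16.5 points stand above the E14.5 points for each gene, and within E16.5 the mutant points stand below the control points for each gene.

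In total 35 members passed the filter on low counts in the fit of all 12 libraries. With age, 35 were higher at E16.5 than at E14.5 in mutants and 35 in controls (edgeR quasi-likelihood test, adjusted p under 0.05), where 27.2% of all genes tested were higher in mutants and 34.3% in controls. In these 35 every E16.5 library lay above every E14.5 library of its genotype, which held for 28.4% of all genes in mutants and 36.8% in controls. Only 15 of the 54 members passed the filter in the E14.5 libraries alone, so the counts describe the list and give no support by themselves. Taking folds from the pooled counts of each group, with genes at 0 counts at E14.5 set at the lower bound that 3 counts over the group allow, the median was 82.8-fold in mutants (12 genes at the bound, range 2.68 to 1757) and 157-fold in controls (13 genes at the bound, range 4.94 to 4764).

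Among the structural proteins Sprr3, a small proline-rich protein typical of oral and oesophageal epithelium, reached 564, 558 and 569 CPM in E16.5 mutants, against 0.495, 0.455 and 1.03 CPM in E14.5 mutants, an 848-fold change. In controls Sprr3 had 916, 967 and 984 CPM at E16.5, against 0.265, 0.452 and 0.952 CPM at E14.5, 1806-fold. No E14.5 library came near any E16.5 library. Cnfn, cornifelin, a small envelope protein, changed 1668-fold with age in mutants and 2480-fold in controls. Lor, loricrin, the glycine-rich main protein of the epidermal envelope, was already countable at E14.5 and changed less, 38.5-fold in mutants and 61.3-fold in controls. Tchh, trichohyalin, known from hair follicles and the papillae of the tongue, changed least among the 24 members that reached 1 CPM, 4.24-fold in mutants and 4.94-fold in controls.

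The Lce3 genes, late envelope genes that are also induced in wounded skin, were all but silent at E14.5. Lce3b and Lce3e had 0 counts in the 6 E14.5 libraries; the E16.5 level of Lce3e was at least 368-fold higher in mutants and at least 913-fold higher in controls, and that of Lce3b at least 254-fold higher in mutants and at least 665-fold higher in controls. Lce3f had 0 counts in E14.5 mutants and 2 in E14.5 controls. Its ratio in controls was 4764, with an exact counting interval of 1318 to 39344, and in mutants its level was at least 1508-fold higher at E16.5. Low counts in these files were mostly even numbers (68.6 to 73.1% of the values from 1 to 20, against 49.5 to 50.5% of the values above 1000), so counts may come in pairs; floors and intervals treat each count as independent and cover counting error only. Of the 50-base windows of Lce3d, Lce3f, Lce3e and Lce3c, 49.3%, 48%, 43.7% and 35.7% also occur in other genes. Values for single Lce3 genes are therefore uncertain.

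The make-up of the envelope transcripts, described here with no test, also differed between the ages. At E16.5 the 5 members with the most counts were Sprr3, Krtdap, Sprr1a, Dmkn and Cnfn in mutants and Sprr3, Krtdap, Dmkn, Cnfn and Sprr1a in controls, and they held 65% of the members' counts in mutants and 61.2% in controls. At E14.5 they were Krtdap, Dmkn, Lor, Sbsn and Tgm1 in mutants, with 72.2%, and Lor, Krtdap, Dmkn, Sbsn and Tgm1 in controls, with 71.5%. Lor made up 4.10% ± 1.14 of the members' counts in E16.5 mutants, against 13.5% ± 2.11 in E14.5 mutants, and 5.24% ± 1.0 in E16.5 controls, against 20.6% ± 1.84 in E14.5 controls (SD, n = 3 each). Levels compared between genes need a scale per length: per kilobase of annotated exon, Krtdap, a secreted protein of differentiating keratinocytes, had the highest level at E16.5, 968 CPM in mutants and 1425 CPM in controls. Next in controls came Sprr3 with 782 CPM per kilobase, Cnfn with 765 and Sprr1a with 658, and next in mutants Cnfn with 510, Sprr1a with 476 and Sprr3 with 462.

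At E16.5 the envelope genes were lower in mutants than in controls, and the fall ran through the structural proteins, the cross-linking enzymes and the secreted proteins. Of the 35 members tested, 28 were lower and 0 higher in mutants (edgeR, adjusted p under 0.05), where 15.7% of all genes tested were lower and 12.2% higher (27.9% in all). DESeq2 also called 28 lower and 0 higher, where it called 17.5% of all genes lower. Of the 35, only Sprr4 had a log2 fold change above 0, at 0.31 (SE 0.40, adjusted p = 0.608). A gene could pass the filter through its control libraries alone, so these counts describe the tested members and not all 54. In 31 of the 35 every mutant library was below every control library, which held for 24.5% of all genes, and in 0 the reverse held (18.3% of all genes). The median log2 fold change, mutant over control, was -0.85 over the members tested and 0.01 over all genes. The summed level of the 54 members in mutants was 61.9% of that in controls. Without mutant libraries 1 and 3, the lone mutant library being taken to vary as the controls do, 16 of 40 members tested were lower, where 9.98% of all genes were lower, and with replicates 1 and 2 alone 16 of 35 were lower (8.99% of all genes). Of the 16 called without mutant libraries 1 and 3, 15 were among the 28. The 13 no longer called were Cnfn, Dmkn, Endou, Krtdap, Sprr1a, Sprr2k, Tchh, Tgm1, Lce1a1, Lce1a2, Lce1b, Lce1l and Lce3d. Of the 28, 11 had a level at least 2-fold lower in mutants.

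**Figure D2:**
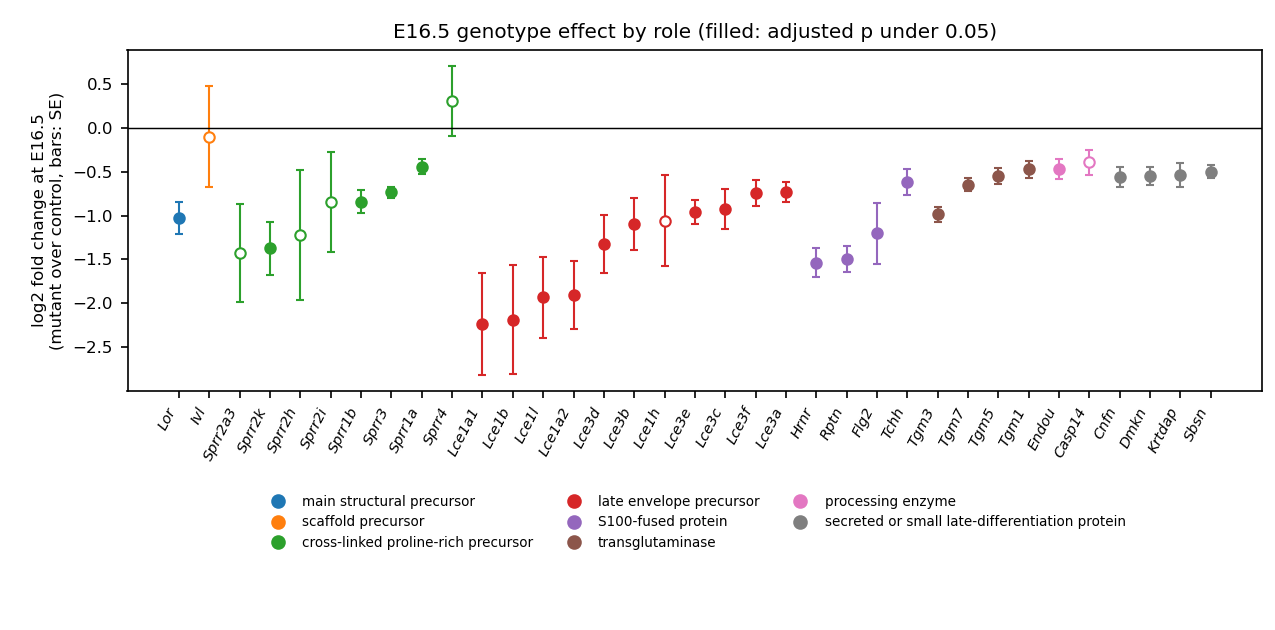
Log2 fold change at E16.5 (mutant over control) of the 35 members tested, grouped by role, with standard errors as bars; filled circles have an adjusted p under 0.05. Lce1a1 and Lce1b lie lowest, at -2.24 and -2.19 with wide bars, and the transglutaminases and secreted proteins lie between -0.99 and -0.47.

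The S100-fused genes Hrnr and Rptn fell furthest among the 24 members that reached 1 CPM. Hrnr, hornerin, had 35.0, 22.8 and 34.3 CPM in mutant libraries 1, 2 and 3, against 87.6, 82.0 and 103 CPM in control libraries, a log2 fold change of -1.54 (SE 0.17, adjusted p = 0.000274). Rptn, repetin, had 150, 99.3 and 137 CPM in mutants, against 345, 373 and 391 CPM in controls, a log2 fold change of -1.49 (SE 0.15, adjusted p = 0.000166). In both genes mutant library 2, the library low in retina and neuron genes, was the lowest, and the groups stayed far apart. Tchh fell by 0.62 on the log2 scale (SE 0.15, adjusted p = 0.0165), with 5.05, 6.63 and 5.86 CPM in mutants and 7.74, 9.10 and 10.4 CPM in controls. Flg2, filaggrin-2, was low, at 0.601, 0.307 and 0.536 CPM in mutants and 0.860, 1.45 and 1.11 CPM in controls. It fell by 1.20 (SE 0.35, adjusted p = 0.0328), and with a block for the replicate number its adjusted p was 0.0572 (20.6% of all genes were lower in that fit). Flg2 was not called without mutant library 3, control library 2 or control library 3 (adjusted p = 0.0689, 0.129 and 0.0718), nor Tchh without control library 2 or 3 (adjusted p = 0.0630 and 0.0643). Without mutant libraries 1 and 3 the log2 fold changes were -1.99 for Hrnr, -1.89 for Rptn and -1.88 for Flg2 (adjusted p = 1.75e-05, 7.75e-06 and 0.0265), and -0.45 for Tchh (adjusted p = 0.154). Together, 4 of the 4 S100-fused genes tested were lower, with a median log2 fold change of -1.35; the fifth, Tchhl1, had too few counts to test. The summed level of the 5 in mutants was 35.2% of that in controls.

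**Figure D3:**
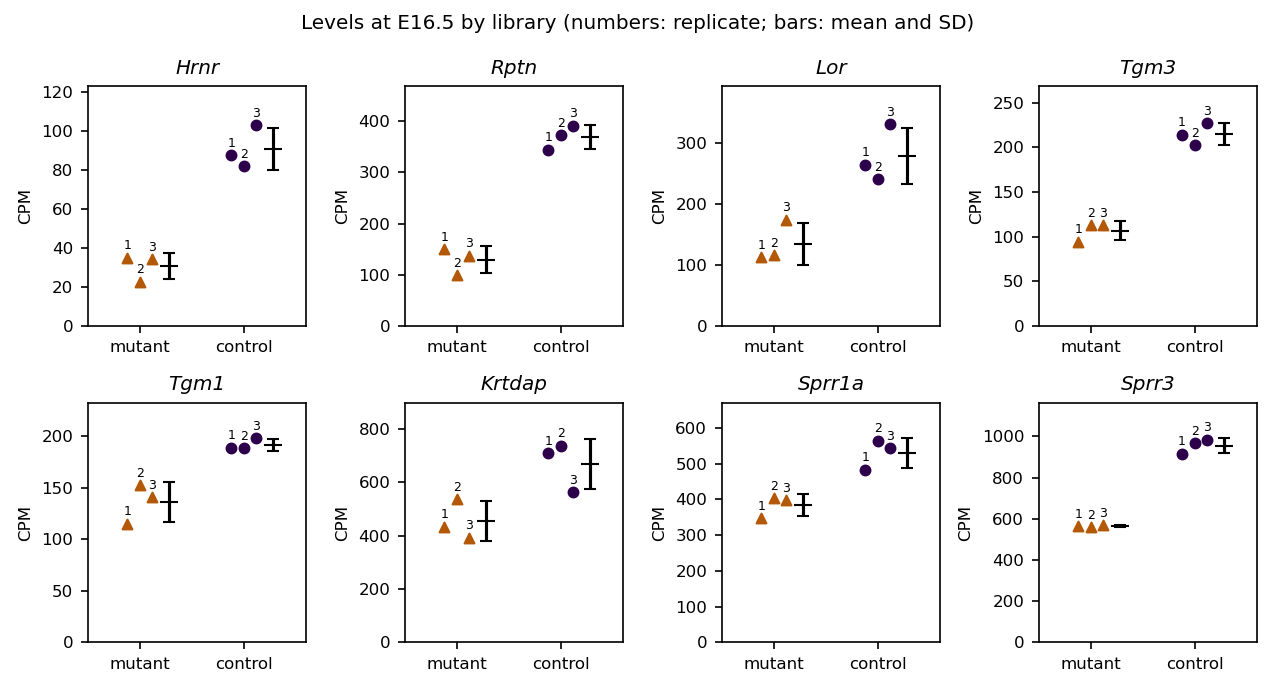
CPM at E16.5 of 8 members in each mutant library (triangles) and control library (circles), numbered by replicate, with mean and SD beside them and axes from 0. The groups do not overlap for any of the 8, and the gap is widest relative to the level for Hrnr and Rptn (log2 fold changes -1.54 and -1.49).

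Lor had 113, 117 and 174 CPM in mutants and 264, 241 and 331 CPM in controls, a log2 fold change of -1.03 (SE 0.18, adjusted p = 0.00355). Replicate 3 was the highest library in both genotypes, and without mutant libraries 1 and 3 the log2 fold change was -1.25 (adjusted p = 0.000473). Ivl, involucrin, an early scaffold protein of the envelope in skin, averaged only 0.276 ± 0.153 CPM in mutants and 0.299 ± 0.166 CPM in controls, and its log2 fold change of -0.10 (SE 0.58, adjusted p = 0.915) leaves a wide range.

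Of the Sprr genes, which bridge other envelope proteins, 8 of 16 could be tested and 4 were lower. Sprr3 fell by 0.74 on the log2 scale (SE 0.06, adjusted p = 7.24e-05), with the library values given above, and its 3 mutant libraries lay close together, far below the lowest control library. Sprr1a, which is induced in stressed as well as in cornifying epithelium, had 348, 404 and 398 CPM in mutants and 483, 564 and 544 CPM in controls. Its fall of 0.44 (SE 0.08, adjusted p = 0.00556) was the smallest among the called members; without mutant libraries 1 and 3 its adjusted p was 0.0520. Sprr1b had 6.99, 5.47 and 6.93 CPM in mutants and 11.9, 11 and 12.6 CPM in controls, a fall of 0.84 (SE 0.13, adjusted p = 0.00202). Sprr2k, at 0.824, 1.08 and 0.50 CPM in mutants and 2.39, 1.90 and 2.04 CPM in controls, fell by 1.38 (SE 0.30, adjusted p = 0.0102), and without mutant libraries 1 and 3 its log2 fold change was -0.96 (adjusted p = 0.0619). The other Sprr genes tested (Sprr2a3, Sprr2h, Sprr2i and Sprr4) averaged under 1 CPM in each group and none was called in the main fit. Sprr2h was called lower when mutant library 1 alone was left out. Sprr2a3 had a log2 fold change of -3.44 without mutant libraries 1 and 3, where it rests on 3 counts in mutant library 2.

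The Lce genes, added late to the envelope, fell in both families that could be tested: 6 of 6 Lce3 genes and 4 of 5 Lce1 genes were lower. Lce3a, with the highest level per kilobase of the Lce3 genes (51.4 CPM in mutants and 86.9 CPM in controls), had 31.1, 29.0 and 24.5 CPM in mutants and 46.1, 53.4 and 43.5 CPM in controls, a log2 fold change of -0.73 (SE 0.11, adjusted p = 0.00202). Lce3f had 21.1, 16.2 and 16.5 CPM in mutants, against 31.7, 34.3 and 25.8 CPM in controls. Lce3e had 4.70, 3.91 and 4.69 CPM in mutants, against 8.11, 8.75 and 9.46 CPM in controls. For each of these 3 genes no mutant library reached the lowest control library. Lce3b and Lce3c fell by 1.10 and 0.92 (adjusted p = 0.0265 and 0.0185), and Lce3d, under 1 CPM in the mean of each group, by 1.32 (adjusted p = 0.0183). Of the 5 Lce1 genes tested, each under 1 CPM in the mean of each group, Lce1a1, Lce1b, Lce1l and Lce1a2 were lower, by 2.24, 2.19, 1.93 and 1.91, with SE between 0.39 and 0.62. The 14 Lce1 genes summed to 0.747, 0.560 and 0.679 CPM in mutants and 3.76, 1.97 and 2.26 CPM in controls. None of these 4 Lce1 genes was called without mutant libraries 1 and 3, and single libraries decided 3 of them: Lce1a1 was lost without mutant library 3 or control library 1, Lce1b without mutant library 2 or 3 or any control library, and Lce1l without mutant library 1, control library 1 or control library 2. Lce3b, Lce3c and Lce3d were lost without mutant library 3, control library 1 or control library 2, at adjusted p of 0.0743, 0.0765 and 0.102 for Lce3b.

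The transglutaminases were lower in 4 of 4 cases. Tgm3, a cytosolic enzyme that proteases activate, had 94.1, 113 and 112 CPM in mutants and 214, 202 and 227 CPM in controls, a log2 fold change of -0.99 (SE 0.08, adjusted p = 6.85e-05). Tgm1, the membrane-anchored enzyme whose loss causes lamellar ichthyosis in people, had 115, 152 and 141 CPM in mutants and 189, 188 and 198 CPM in controls, a log2 fold change of -0.47 (SE 0.10, adjusted p = 0.00741). The Tgm3 level in mutants was 50.5% of that in controls and the Tgm1 level 72.0%. Tgm7, a less studied member of the family, fell by 0.65 (SE 0.07, adjusted p = 0.000374), at 60.0, 70.4 and 61.5 CPM in mutants and 102, 106 and 98.0 CPM in controls. Tgm5, mutated in a skin-peeling disorder of people, fell by 0.55 (SE 0.09, adjusted p = 0.00227), at 17.9, 19.3 and 17.1 CPM in mutants and 24.7, 29.0 and 26.9 CPM in controls. Without mutant libraries 1 and 3 the adjusted p of Tgm1 was 0.0551 while its log2 fold change was -0.33.

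Of the processing enzymes, Endou, a poly(U)-specific endoribonuclease, had 172, 244 and 203 CPM in mutants and 290, 299 and 281 CPM in controls, a fall of 0.47 (SE 0.11, adjusted p = 0.0158). Endou was not called without control library 1 or control library 2 (adjusted p = 0.0569 and 0.0744), at log2 fold changes of -0.47 and -0.45, nor without mutant libraries 1 and 3, at -0.24 (adjusted p = 0.160). Casp14, the caspase that helps break down filaggrin in skin, had 5.63, 7.44 and 7.40 CPM in mutants and 9.57, 8.13 and 9.55 CPM in controls. The groups of Casp14 did not overlap, but its log2 fold change of -0.39 (SE 0.14) had an adjusted p of 0.0668 with edgeR and 0.0334 with DESeq2, and of 0.0479 with edgeR without mutant library 2.

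The secreted and small proteins of late differentiation had log2 fold changes between -0.56 and -0.50. Krtdap had 434, 537 and 393 CPM in mutants and 709, 737 and 563 CPM in controls, a log2 fold change of -0.54 (SE 0.14, adjusted p = 0.0205). Dmkn, dermokine, had 355, 432 and 340 CPM in mutants and 582, 586 and 507 CPM in controls, a log2 fold change of -0.55 (SE 0.10, adjusted p = 0.00546). Sbsn, suprabasin, had 231, 270 and 244 CPM in mutants and 368, 359 and 343 CPM in controls, a log2 fold change of -0.50 (SE 0.08, adjusted p = 0.00167). Cnfn had 370, 411 and 319 CPM in mutants and 571, 601 and 477 CPM in controls, a log2 fold change of -0.56 (SE 0.12, adjusted p = 0.00879). In each of the 4 the groups stayed apart, and library 2 was the highest mutant library. Without mutant libraries 1 and 3 Krtdap, Dmkn and Cnfn were no longer called, at log2 fold changes of -0.31, -0.36 and -0.41, and without any of 4 single libraries in turn (mutant 1, mutant 3, control 1 or control 2) Krtdap was not called either (adjusted p = 0.0555, 0.0607, 0.0794 and 0.0887).

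How members stood to each other was described by ratios within libraries, chosen after the values were seen and not tested. The ratio of Tgm3 to Tgm1 counts was 0.787 ± 0.0390 in mutants and 1.12 ± 0.0381 in controls, and that of Rptn to Sprr1a 0.340 ± 0.0927 in mutants and 0.698 ± 0.0320 in controls (SD, n = 3 each). The neighbours on chromosome 7 kept close ratios: Krtdap to Sbsn was 1.83 ± 0.195 in mutants and 1.87 ± 0.210 in controls, and Dmkn to Sbsn 1.51 ± 0.106 in mutants and 1.56 ± 0.0773 in controls. By role, the summed level in mutants was 35.2% of that in controls for the S100-fused genes, 48.3% for Lor, 55.7% for the Lce genes, 60.7% for the transglutaminases, 63.7% for the Sprr genes, 67.7% for the secreted and small proteins and 71.3% for Endou and Casp14, and for Ivl, at a low level, 92.2%. In the authors' deposited table, from DESeq2, 24 of the 24 members that reached 1 CPM were lower in E16.5 mutants with an adjusted p under 0.05, at log2 fold changes between -1.47 and -0.37. Over all 41 members with an adjusted p in the authors' deposited table, a total of 29 were lower and 0 higher, where 16.4% of all genes in it were lower.

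At E14.5, 15 members had enough counts to test and edgeR called 0 of them, where it called 7.52% of all genes (2.95% higher and 4.57% lower in mutants). With so few members tested, a count of 0 is close to that share. DESeq2 also called 0, and the replicate block and the fit of all 12 libraries called 1 and 2. The share of all genes called in these alternative fits is not given here, so the counts of 1 and 2 cannot be set against it. The summed level was 25.2 ± 1.16 CPM in mutants and 22.3 ± 3.82 CPM in controls (SD, n = 3 each). In 4 members the mutant libraries all lay above the control libraries, which held for 14.6% of all genes, and in 0 members they all lay below, which held for 14% of all genes. Those 4 were the 2 processing enzymes and 2 of the 4 transglutaminases. The other transglutaminases, Tgm3 and Tgm5, had log2 fold changes of -0.12 and -0.15 (edgeR, adjusted p = 0.868 and 0.895). The median was 0.26 over the 15 members and 0.01 over all genes. In lists given below it was 0.34 for basal, 0.33 for general epithelial, 0.48 for periderm and 0.32 for spinous genes. It was 0.32 for cornification partners, 0.29 for nasal and ciliated genes and -0.07 for neighbours of the members. Casp14 had 0.842, 0.775 and 0.687 CPM in mutants and 0.286, 0.607 and 0.235 CPM in controls, a log2 fold change of 1.0 (SE 0.37, adjusted p = 0.140), and without control library 2, the highest of the controls, it was called at 1.55 (adjusted p = 0.0276). Tgm1 had 2.45, 3.29 and 2.61 CPM in mutants and 1.82, 2.23 and 1.80 CPM in controls, a log2 fold change of 0.51 (SE 0.18, adjusted p = 0.116). Tgm7 and Endou had log2 fold changes of 0.89 (SE 0.37, adjusted p = 0.177) and 0.56 (SE 0.29, adjusted p = 0.274). Krtdap, at 4.80, 6.15 and 3.91 CPM in mutants and 3.10, 4.33 and 3.17 CPM in controls, had a log2 fold change of 0.48 (SE 0.19, adjusted p = 0.163). Lor and Tchh had log2 fold changes of -0.41 (SE 0.16, adjusted p = 0.168) and -0.46 (SE 0.25, adjusted p = 0.307).

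Libraries numbered 3 were the highest at E14.5 for Cnfn, Sprr3, Hrnr and Rptn in both genotypes. Cnfn had 0.0990, 0.123 and 0.427 CPM in mutants and 0.0408, 0.0934 and 0.623 CPM in controls, and Rptn had 0.272, 0.0246 and 0.367 CPM in mutants and 0.173, 0.187 and 0.470 CPM in controls. For these genes the spread within a genotype exceeded the difference between the means.

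Whether genotype acted differently at E16.5 and at E14.5 was tested as an interaction in the fit of all 12 libraries. Of 35 members tested 9 were called, each with a lower mutant effect at E16.5 than at E14.5, where 12.4% of all genes were called in that direction and 9.97% in the other (22.3% in all). They were the enzymes Tgm1, Tgm3, Tgm7, Casp14 and Endou, the secreted proteins Krtdap, Dmkn and Sbsn, and Sprr1b. For Tgm1 the log2 fold change, mutant over control, was -0.47 at E16.5 and 0.51 at E14.5, a difference of -1.0 (SE 0.18, adjusted p = 0.00169). For Tgm3 it was -0.99 at E16.5 and -0.12 at E14.5, a difference of -0.92 (SE 0.24, adjusted p = 0.0166). For Krtdap the difference was -1.04 (SE 0.25, adjusted p = 0.0106). Hrnr, Rptn and Lor were not among the 9, and Hrnr had only 8 counts in E14.5 mutants and 7 in E14.5 controls. Only 15 members passed the filter in the E14.5 libraries alone, and many Lce genes had 0 counts in an E14.5 group. For those a difference could hardly be called, so the 26 members not called do not show that it was absent. Without E16.5 mutant libraries 1 and 3, 6 members were called, each lower, where 6.35% of all genes were lower; 5 of them were among the 9 (Tgm1, Tgm7, Endou, Sprr1b and Sbsn), and the other was Lor, at -0.83 (SE 0.24, adjusted p = 0.0483).

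Genes of several other epithelial lists also had a lower mutant effect at E16.5 than at E14.5. Over all genes tested, 12.4% were called lower. Near that share stood the periderm and wound keratins, with 1 of 6 called lower (median -0.66). So did the neighbours in the epidermal differentiation complex that are not members, with 3 of 18 tested called lower (median -0.31). The difference was called lower for 7 of 8 general epithelial genes (median -0.97), 7 of 10 nasal and ciliated genes (median -1.77), 8 of 16 cornification partners (median -0.74), 6 of 15 regulators of differentiation (median -0.52) and 3 of 10 spinous and granular genes (median -0.96), and for 0 of 8 basal genes (median -0.42). Without E16.5 mutant libraries 1 and 3 it was called lower for 2 of the general epithelial genes, 6 of the nasal and ciliated genes, 0 of the partners, 2 of the regulators, 2 of the spinous and granular genes and 0 of the basal genes. The part of these epithelial genes in the members' difference was not tested.

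**Figure D4:**
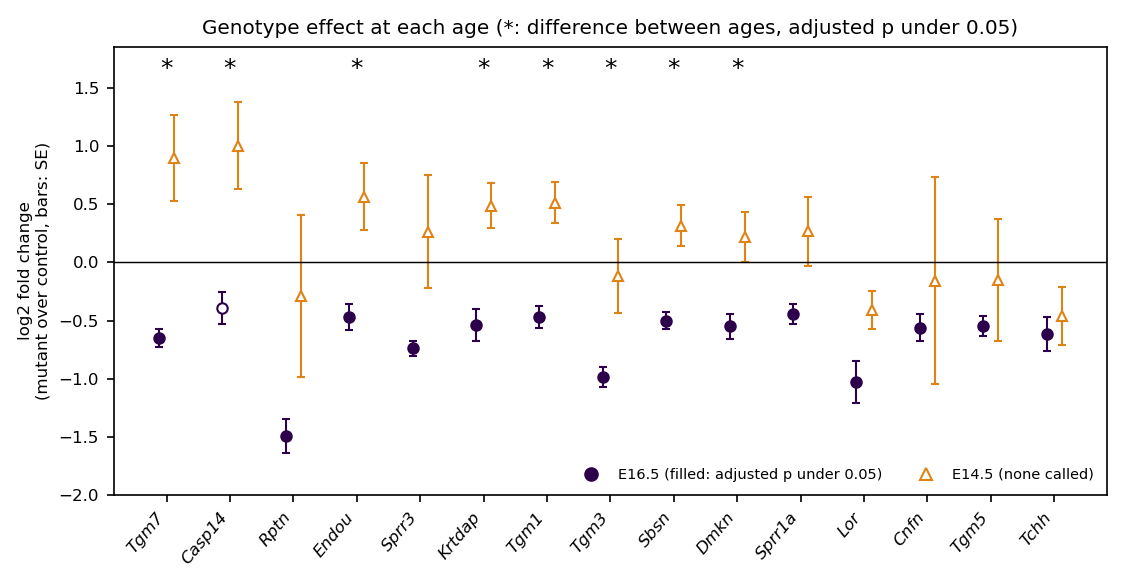
Log2 fold change (mutant over control) at E16.5 (circles) and E14.5 (triangles) of the 15 members tested at both ages, with standard errors as bars; asterisks mark an adjusted p under 0.05 for the difference between ages. Casp14, Tgm7, Endou, Krtdap, Tgm1, Sbsn, Dmkn, Sprr1a and Sprr3 lie above 0 at E14.5, where no member was called, and below 0 at E16.5.

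Other epithelial genes were counted beside the members at E16.5, from lists fixed with earlier results of these data known. Of 8 genes of the basal layer, 0 were called by edgeR and their median log2 fold change was -0.15; summed, they had 7134, 12091 and 9888 CPM in mutants, against 11452, 10975 and 11344 CPM in controls. Krt5, the basal keratin, averaged 3473 ± 875 CPM in mutants and 4120 ± 250 CPM in controls (adjusted p = 0.320). Mutant library 1 was the lowest and mutant library 2 the highest of the mutants in this list and in those of general epithelium, the spinous and granular layers and the cornification partners. Of 8 general epithelial genes, 5 were lower, among them Krt8 by 1.02 (adjusted p = 0.00125), while Cdh1, E-cadherin, had a log2 fold change of -0.38 (adjusted p = 0.107). Their summed range was 1143 to 1823 CPM in mutants and 2260 to 2356 CPM in controls. Without mutant libraries 1 and 3, 4 of the 8 general genes were lower, Krt8 among them, and of the basal genes Krt14 was higher and none lower. The part of epithelial content in the fall of the members was not tested.

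Of 10 spinous and granular genes, 6 were lower, with a summed range of 3185 to 3975 CPM in mutants and 5370 to 5713 CPM in controls. Krt10, a suprabasal keratin, averaged 408 ± 25.8 CPM in mutants and 802 ± 80.1 CPM in controls, a fall of 0.95 (adjusted p = 0.000166), and Krt1, its partner, fell by 0.50 (adjusted p = 0.00507). Of 6 periderm and wound keratins, Krt4 and Krt13, the pair of wet stratified epithelium, fell by 0.47 and 0.51 (adjusted p = 0.00930 and 0.00280), and the other 4 were not called. Among 16 partners of cornification (scaffold proteins, inhibitors and proteases) 10 were lower and 0 higher; Anxa1, a membrane-binding protein that is itself cross-linked, fell by 0.38 (adjusted p = 0.0259), whereas Dsp, desmoplakin, had a log2 fold change of -0.28 (adjusted p = 0.264). Of 18 tested neighbours in the epidermal differentiation complex that are not members, 7 were lower and 0 higher, among them S100a14 by 0.46 (adjusted p = 0.0381) and S100a16 by 0.36 (adjusted p = 0.0390). Without mutant libraries 1 and 3, 5 of the spinous and granular genes, 1 of the periderm and wound keratins, 4 of the partners and 3 of the neighbours were lower; Krt1, Krt13, Anxa1, S100a14 and S100a16 were no longer called, Krt10 and Krt4 were, and Krt16 and Krt17 were higher.

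Of 15 regulators of keratinocyte differentiation, 7 were lower and 0 higher at E16.5. Klf4, a factor needed for the skin barrier in mice, averaged 332 ± 66.0 CPM in mutants and 491 ± 46.6 CPM in controls, a fall of 0.54 (adjusted p = 0.0192). Hopx fell by 0.55 (adjusted p = 0.000576) and Grhl1 by 0.55 (adjusted p = 0.00324). Of the 15, 3 were lower without mutant libraries 1 and 3 (Grhl1, Hopx and Barx2), and Klf4 was not called. At E14.5, 1 of the 15 regulators was lower and 1 higher, with a list median of 0.14. Of all genes tested at E14.5, 4.57% were lower and 2.95% higher. Klf4 was the lower one, by 0.86 (adjusted p = 3.41e-05), at 72.9 ± 2.92 CPM in mutants and 132 ± 9.01 CPM in controls, while no envelope gene was called. Tfap2c was the higher one, by 0.49 (adjusted p = 0.0399). The 15 envelope genes tested at E14.5 had a median log2 fold change of 0.26, with 9 above 0 and 6 below. Krt6a and Krt16 rose in E14.5 mutants by 0.69 and 0.68 on the log2 scale (edgeR, adjusted p = 0.0120 and 0.0257). Krt6a had 106 ± 10.3 CPM in E14.5 mutants and 65.5 ± 13.6 CPM in E14.5 controls. Krt16 had 3.80 ± 0.346 CPM in E14.5 mutants and 2.37 ± 0.283 CPM in E14.5 controls. Epcam and Anxa1 also rose in E14.5 mutants, by 0.46 and 0.37 (adjusted p = 0.0322 and 0.0338), as did Bpifa1 of the nasal and ciliated list, by 1.04 (adjusted p = 0.00203). Of 10 genes of nasal and ciliated epithelium, which lines the other face of the palate and does not cornify, 7 were lower at E16.5, with a median of -1.21 and a summed range of 930 to 1431 CPM in mutants and 2032 to 2145 CPM in controls. The same 7 were lower without mutant libraries 1 and 3, and Dnah5 was higher. Sec14l3 fell by 1.95 (adjusted p = 5.05e-06), and Foxj1, the regulator of motile cilia, had a log2 fold change of -0.60 (adjusted p = 0.296).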

How the data were processed

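Per the submitters' processing notes, reads were aligned to the mouse build mm9 with HISAT2 and counted with featureCounts, and the authors deposited raw counts per gene for each library; versions, annotation, strand setting and the treatment of reads that match several genes are not given in the sources used here. Log2 fold changes and adjusted p-values of the members were copied from DESeq2 tables that the authors deposited for each age. Tables of the whole series with 24 per-sample columns were not used. Names of 27 genes read as dates; they hold 0.251% of the counts and stayed in the fits unnamed.

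The deposited counts were tested with edgeR 4.0.16 in R 4.3.3 (TMM factors, filterByExpr, quasi-likelihood F test, Benjamini-Hochberg adjusted p under 0.05 over all genes tested). Genotype was compared within each age on 6 libraries; the difference between ages and the change with age came from a fit of all 12. The standard error is the log2 fold change divided by the square root of F, and was left out where a group had 0 counts. Fits were tested on simulated counts. Named are the members that passed the filter and reached 1 CPM in a group (24), others by counts, and from each list of other genes at most 4 with the highest mean CPM (called genes, for lists of up to 6). Tfap2c and Bpifa1 are named besides, for their calls at E14.5. Members, lists and tests were chosen with earlier results of these data known.

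Alternatives were other scalings (DESeq2 size factors, upper quartile), DESeq2 1.42.0, limma-voom (limma 3.58.1), no filter or at least 5 CPM in 3 libraries, a replicate block, a term for replicates numbered 3, replicates 1 and 2 alone, each library left out, other sets of libraries in the fit, and E16.5 mutant libraries 1 and 3 left out. Same-numbered libraries were read as possible pairs where their deviations from the group means correlated above 0.1 for each number over 17550 genes. At E16.5 the correlations were 0.105, 0.161 and 0.222, and at E14.5 0.0193, 0.0445 and 0.160. Only the E16.5 genotype comparison met this limit, a pairing that comes from the data and not from the labels. The main E16.5 fit was still unpaired, and the pairing entered only as the replicate block among the alternatives. Shared windows of 50 bases were counted on GENCODE M21 transcripts and exon lengths taken from the same annotation; promoters came from RefSeq on GRCm38.p6, since the counts carry no coordinates.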

Additional observations from a re-analysis of the deposited data

Results flagged for a closer look

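For 9 members the effect of genotype differed between E16.5 and E14.5 in the fit of all 12 libraries (edgeR quasi-likelihood test of the difference, adjusted p under 0.05). Given as the log2 effect at E16.5 minus that at E14.5, mutant over control at each age, the difference was -0.83 for Sbsn, -0.78 for Dmkn and -1.04 for Krtdap among the secreted proteins. Among the enzymes it was -1.56 for Tgm7, -1.39 for Casp14, -1.07 for Endou, -1.0 for Tgm1 and -0.92 for Tgm3. For Sprr1b it was -4.53, which rests on 14 counts in E14.5 mutants and 1 in E14.5 controls. The same difference was called lower for 12.4% of all genes. It was called lower for 7 of 8 general epithelial genes, 7 of 10 nasal and ciliated genes and 1 of 6 periderm and wound keratins. The part of these epithelial genes in the members' difference was not tested. Without E16.5 mutant libraries 1 and 3, 6 members were called, Lor newly so, and Casp14, Tgm3, Dmkn and Krtdap were not among them (adjusted p = 0.0879, 0.0577, 0.241 and 0.109). Dmkn was also not called when any of 7 single libraries was left out (adjusted p = 0.0506 to 0.110), and Tgm3 without E14.5 mutant library 2 (adjusted p = 0.0621). With limma-voom Endou, Tgm3 and Dmkn were not called (adjusted p = 0.138, 0.122 and 0.0577).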

How the results depend on the processing

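No value changed sign under any alternative among those with a call. Of the 24 named members at E16.5, 367 of 405 alternative values kept their direction and side of the threshold, 36 were no longer called and 2, both for Casp14, became called. The number lower in E16.5 mutants was 28, and 16 with replicates 1 and 2 alone (where 8.99% of all genes were lower) or without E16.5 mutant libraries 1 and 3. It was 20 of 21 tested at 5 CPM, 27 with the replicate block (20.6% of all genes lower), where Flg2 was lost, and 20 to 29 with each library left out. Shares of all genes at 5 CPM and with each library left out are not given here. These counts alone therefore do not show how steady the members were. The cause of these changes was not tested, and neither was the part of the smaller number of libraries or genes. Krtdap, Flg2, Tchh, Endou, Lce3b and Lce3c each lost their call when some single library was left out.

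At E14.5, where the number called was 0, it was 1 with the replicate block (Krtdap, log2 0.48, adjusted p = 0.0362), 1 without E14.5 control replicate 2 (Casp14, log2 1.55, adjusted p = 0.0276) and 2 with all 12 libraries in the fit (Tgm7, log2 0.89, adjusted p = 0.0329, and Sprr1b, log2 3.66, adjusted p = 0.0175); leaving out each library gave 0 to 1, and at 5 CPM no member was left to test. Between ages 35 members were called in each genotype, and 21 of 21 tested at 5 CPM in mutants and 21 of 21 in controls; leaving out each library gave 33 to 35 in mutants and 35 to 36 in controls. The difference between ages had 9 calls, where 12.4% of all genes were called lower and 9.97% higher. It had 8 to 10 calls with each library left out, 11 with DESeq2 or the replicate block and 6 with limma-voom. Shares of all genes in the alternative fits of this paragraph are not given here, so their counts alone do not show how steady the members were. Outside the E16.5 genotype comparison the block is a check of the number alone. Libraries held 76417891 to 111946208 counts at E16.5 and 78168839 to 125996587 at E14.5, where 39 of 54 members had too few counts to test.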
